A study of Rattus norvegicus with 4 samples.

Results

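The let-7 family guide strands examined here are the 5p arms rno-let-7a-5p, rno-let-7b-5p, rno-let-7c-5p, rno-let-7d-5p, rno-let-7e-5p, rno-let-7f-5p, rno-let-7i-5p and rno-miR-98-5p. They were chosen by family name and are 8 of the 740 mature miRNA names in the deposited count table. Where a mature miRNA is encoded at more than 1 place in the genome, the counts of its loci were added, so that the 8 names stand for 11 loci. Small RNA had been sequenced from 4 libraries, 1 per group, made from chondrocytes of the costochondral (rib) cartilage of male Sprague Dawley rats, with no treatment of the cultures and no age of the animals given in the labels. RC-cells were resting zone chondrocytes, the less mature cells of the growth plate, and GC-cells were growth zone chondrocytes, the more mature ones. RC-MVs and GC-MVs were the matrix vesicles of those cultures, membrane-bound particles held in the extracellular matrix, which were released by trypsin digestion of the cell layer and collected by differential centrifugation. All cultures were at passage 4 and in medium with ascorbic acid and fetal bovine serum, which per the study's methods had been spun to deplete it of bovine exosomes, so the cells had been expanded in culture before they were harvested.

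MicroRNAs of the let-7 family pair with messenger RNAs through a shared seed, bases 2 to 8 of the mature strand, and lower the stability and translation of these targets. The RNA-binding proteins LIN28A and LIN28B block the maturation of let-7 precursors, and let-7 levels are known to increase as cells leave the embryonic state and differentiate. Known targets include Hmga2, Igf2bp1 and Ras genes, and in mice let-7 is needed for the normal proliferation of growth plate chondrocytes. The precursor is a hairpin whose 5p arm is usually kept in the Argonaute protein as the guide, while the 3p arm is usually degraded.

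The mature sequences are shown because the members differ from each other by few bases and yet had very different shares in matrix vesicles. All 8 members matched an entry of the RefSeq miRNA annotation (assembly GRCr8), are 22 bases long and are printed 5′ to 3′ with the seed in capitals.
rno-let-7i-5p: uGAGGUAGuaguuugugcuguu
rno-let-7f-5p: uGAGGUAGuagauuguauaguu
rno-let-7c-5p: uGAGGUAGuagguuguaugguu
rno-let-7b-5p: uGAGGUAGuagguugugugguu
rno-let-7a-5p: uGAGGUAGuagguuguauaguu
rno-let-7d-5p: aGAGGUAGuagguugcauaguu
rno-let-7e-5p: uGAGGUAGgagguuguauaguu
rno-miR-98-5p: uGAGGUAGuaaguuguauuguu

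The seed GAGGUAG was the same in all 8. Counted from 1 at the 5′ end, the changes from let-7a were A19G in let-7c, A17G and A19G in let-7b, U9G in let-7e, G12A in let-7f, U1A and U16C in let-7d, G11A and A19U in miR-98, and G12U, A17G, U18C and A19U in let-7i. Of the 28 pairs of members, 4 differ by 1 base only, namely let-7a with let-7c, let-7e and let-7f, and let-7b with let-7c. One misread base can turn a read of such a member into that of its partner, and how mismatched reads were counted is not given in the sources used here.

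The 4 libraries held 6517329 (RC-cells) and 7414467 (GC-cells) miRNA reads, against 1108821 in RC-MVs and 982543 in GC-MVs. Every level below is a percent of these totals, and every ratio is the percent in 1 library over that in another. Since each group had 1 library and no replicate, no difference could be set against the spread between cultures and no p-value was computed. The 95% intervals are Wilson intervals for shares and exact Clopper-Pearson ones for ratios of 2 percents. For a ratio of 2 such ratios they are normal approximations on the log scale. All of them cover counting error only, and PCR copies of a molecule were counted as separate reads. In bulk RNA of this kind, fewer cells of a type and less RNA per cell cannot be told apart. The cartilage label was checked with both arms of miR-140, miR-455 and miR-675, which summed to between 0.526% and 1.00% of miRNA reads over the 4 libraries, while miR-675-5p was at 0 in all 4 and miR-675-3p had 1 read in GC-cells. Most of these sums was miR-140-3p, whose share in MVs was 2.48 times that in cells in RC and 1.57 times in GC, and miR-455-3p was at 1.72 and 1.45 times. The 5p arms of these hairpins went the other way, with miR-140-5p 8.37-fold and 3.75-fold lower and miR-455-5p 2.66-fold and 2.57-fold lower in RC-MVs and GC-MVs than in the cells. Markers of blood and serum moved with the vesicles. The 8 of 9 listed markers found in the table, among them the liver miRNA miR-122-5p and the red cell miRNA miR-451-5p, summed to 0.0265% in RC-cells and 0.0228% in GC-cells, against 0.505% in RC-MVs and 1.39% in GC-MVs. At least 2-fold higher shares in MVs were seen for 7 of 8 in RC, all but miR-126a-3p, and for 7 of 7 with reads in both libraries in GC, beside 33.6% and 32.1% of all miRNAs. In GC-cells miR-223-3p was at 0. The part of such RNA in the let-7 values was not tested.

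The let-7 family held a large share of the miRNA reads of the chondrocytes and a smaller one of those of their vesicles. Together the 8 members took 672064 reads of RC-cells, which was 10.3% of all miRNA reads (95% interval 10.29% to 10.34%). They took 680752 reads or 9.18% of GC-cells, 63857 reads or 5.76% of RC-MVs and 44735 reads or 4.55% of GC-MVs. Both cell libraries were thus above both vesicle libraries. The share in RC-MVs was 1.79-fold below that in RC-cells (ratio 0.5585, interval 0.554 to 0.563) and that in GC-MVs was 2.02-fold below that in GC-cells (ratio 0.496, interval 0.491 to 0.501). The sum rests on a few abundant members. Without let-7i the ratio was 0.794 in RC, without let-7b it was 0.427, and without let-7f it was 0.691. In GC the lowest ratio after leaving out a member was 0.416, without let-7b, and the highest was 0.617, without let-7f.

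The members spanned a wide range of levels within each library. Let-7i led the family in both cell types. Its level was 5.00% in RC-cells and 4.92% in GC-cells, against 1.54% in RC-MVs and 2.19% in GC-MVs, and it ranked 3 among all miRNAs in each cell library. In the vesicles it ranked 11 in RC and 5 in GC. Let-7f came next in cells, with 2.35% in RC-cells and 2.11% in GC-cells, but had 0.257% in RC-MVs and 0.190% in GC-MVs. Its rank among all miRNAs went from 6 in both cell libraries to 40 in RC-MVs and 44 in GC-MVs.

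Let-7c and let-7b, which both carry A19G relative to let-7a, stood high in the vesicles. The level of let-7c was 1.34% in RC-cells and 0.954% in GC-cells, against 1.88% in RC-MVs and 0.872% in GC-MVs. It was the leading let-7 of RC-MVs and ranked 8 among all miRNAs there. Let-7b was at 0.634% in RC-cells and 0.427% in GC-cells, against 1.62% in RC-MVs and 0.910% in GC-MVs. Both vesicle libraries lay above both cell libraries for let-7b, the only member with this order.

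Of the remaining members, let-7d, let-7e and miR-98 ranked 6, 7 and 8 among the 8 members in all 4 libraries. In contrast, let-7a lay above let-7b in GC-cells and close to let-7f in both MV libraries. Let-7a, the most widely studied member, was at 0.604% in RC-cells and 0.475% in GC-cells, against 0.266% in RC-MVs and 0.193% in GC-MVs. Let-7d was at 0.171% and 0.137% in RC-cells and GC-cells, and at 0.129% and 0.155% in RC-MVs and GC-MVs, the narrowest range of the 8. Let-7e was at 0.156% and 0.112% in the cells and at 0.0545% and 0.0352% in their vesicles. The lowest member in all 4 libraries was miR-98, with 0.0504% in RC-cells and 0.0450% in GC-cells, against 0.00523% in RC-MVs and 0.00743% in GC-MVs. These MV levels of miR-98 rest on 58 and 73 reads. When the members were ordered by level in each library, neighbours differed beyond counting error everywhere except for let-7a and let-7f in both vesicle libraries, whose intervals overlapped.

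**Figure D1:**
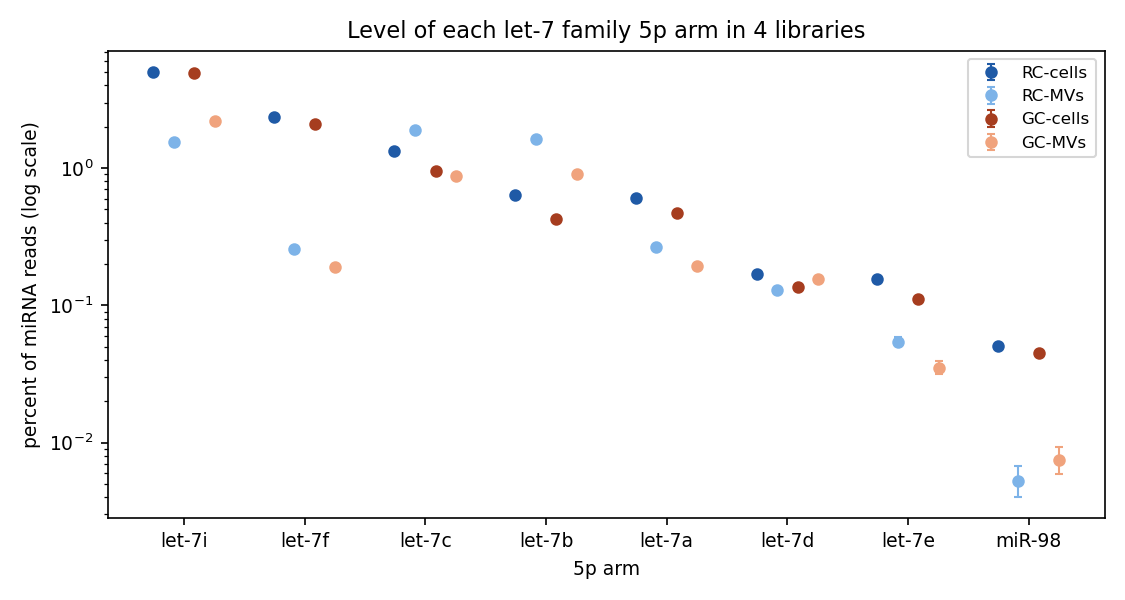
Level of each let-7 family 5p arm as a percent of all miRNA reads (vertical axis, log scale) in the 4 libraries, with 1 point per library and 95% Wilson intervals for counting error, most of them smaller than the point. Let-7f and miR-98 are far lower in both MV libraries than in both cell libraries, whereas let-7b is higher, with 1.62% and 0.910% in MVs against 0.634% and 0.427% in cells.

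The make-up of the family therefore differed between vesicles and cells. Of the family reads, let-7i held 48.5% in RC-cells and 53.6% in GC-cells, against 26.8% in RC-MVs and 48.1% in GC-MVs. Let-7f held 22.8% in RC-cells and 23.0% in GC-cells but 4.47% in RC-MVs and 4.17% in GC-MVs. The reverse was seen for let-7b and let-7c, which together made up 19.2% in RC-cells and 15.0% in GC-cells, and 60.9% in RC-MVs and 39.1% in GC-MVs. These shares within the family do not depend on the total by which a library is divided.

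**Figure D2:**
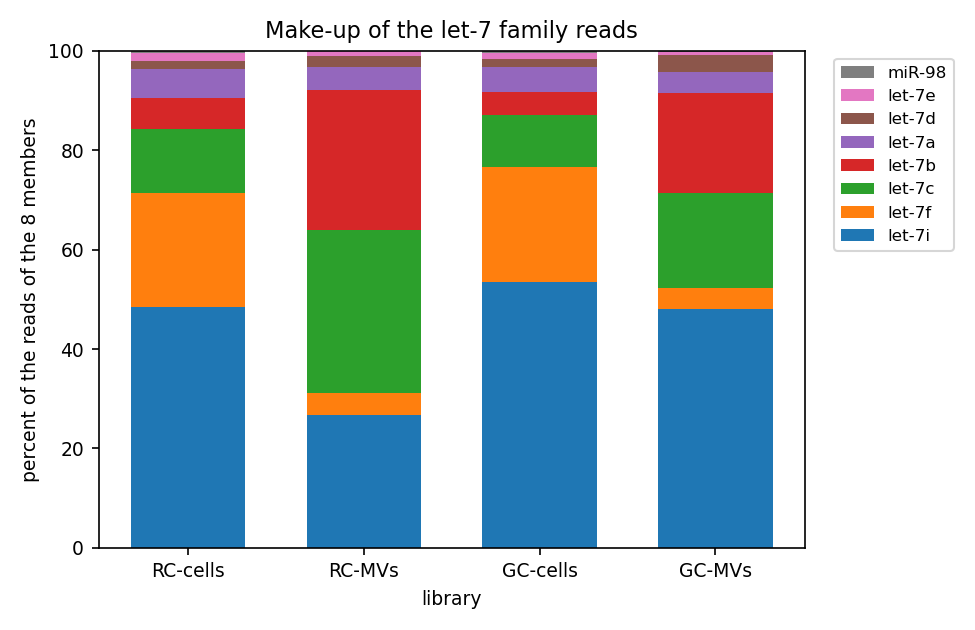
Make-up of the reads of the 8 members in each library (vertical axis, percent of family reads, with each bar summing to 100%). The let-7f segment is 22.8% and 23.0% in the cell libraries and 4.47% and 4.17% in the MV libraries, and let-7b with let-7c fills 60.9% of the RC-MV bar.

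The first comparison asked which miRNAs the vesicles of resting zone cells hold in other proportions than the cells. Of the 8 members, 1 had a share in RC-MVs at least 2 times that in RC-cells, and 5 were past 2-fold lower. Over all 414 miRNAs read at least once in each of the pair of libraries, 33.6% were 2-fold higher and 30.4% were 2-fold lower. The median log2 ratio was -1.35 for the 8 members and 0.08 for all 414 miRNAs compared. Let-7b was the member with the higher share, 2.56-fold that in RC-cells (interval 2.51 to 2.61). The ratio of let-7c was 1.40 and that of let-7d was 0.754, both inside the 2-fold limits. Let-7a was 2.27-fold lower, let-7e 2.86-fold lower and let-7i 3.24-fold lower (interval 3.19 to 3.29). Let-7f was 9.15-fold lower (interval 8.82 to 9.50) and miR-98 was 9.64-fold lower (interval 7.44 to 12.7). Only 6.04% of all miRNAs compared had a lower ratio than let-7f.

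In the growth zone the same comparison again put 1 member past 2-fold higher in GC-MVs than in GC-cells and 5 past 2-fold lower. The background was 32.1% of all miRNAs higher and 25.2% lower. The median log2 ratio was -1.23 for the members and 0.13 for all 417 miRNAs compared. The higher member was let-7b with a ratio of 2.13 (interval 2.08 to 2.18), but with TMM-scaled or DESeq2-scaled libraries this ratio was 1.82 or 1.92, just under the limit, and no member was called higher. Let-7d was at a ratio of 1.13 (interval 1.07 to 1.20) and at 0.972 with TMM scaling. Let-7c was at 0.913. Let-7i was 2.25-fold lower, let-7a 2.46-fold lower and let-7e 3.18-fold lower. Let-7f was 11.1-fold lower (interval 10.6 to 11.7) and had a lower ratio than all but 2.16% of the miRNAs compared, while miR-98 was 6.06-fold lower (interval 4.81 to 7.75). The 2 zones had separate cell and vesicle libraries, and let-7b was the highest of the 8 ratios in both.

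**Figure D3:**
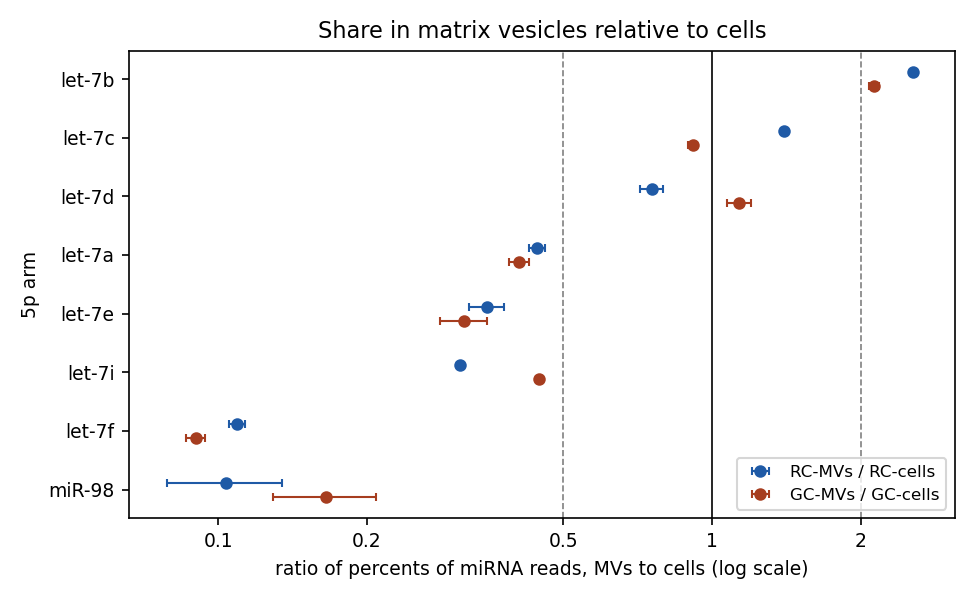
Ratio of the percent of miRNA reads in MVs to that in cells (horizontal axis, log scale) for each member in the resting zone (blue) and growth zone (red), with exact 95% intervals for counting error, a solid line at 1 and dashed lines at 2-fold in either direction. The members run from let-7b, at 2.56 and 2.13, to let-7f and miR-98, at 0.109 and 0.0899 and at 0.104 and 0.165.

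**Figure D4:**
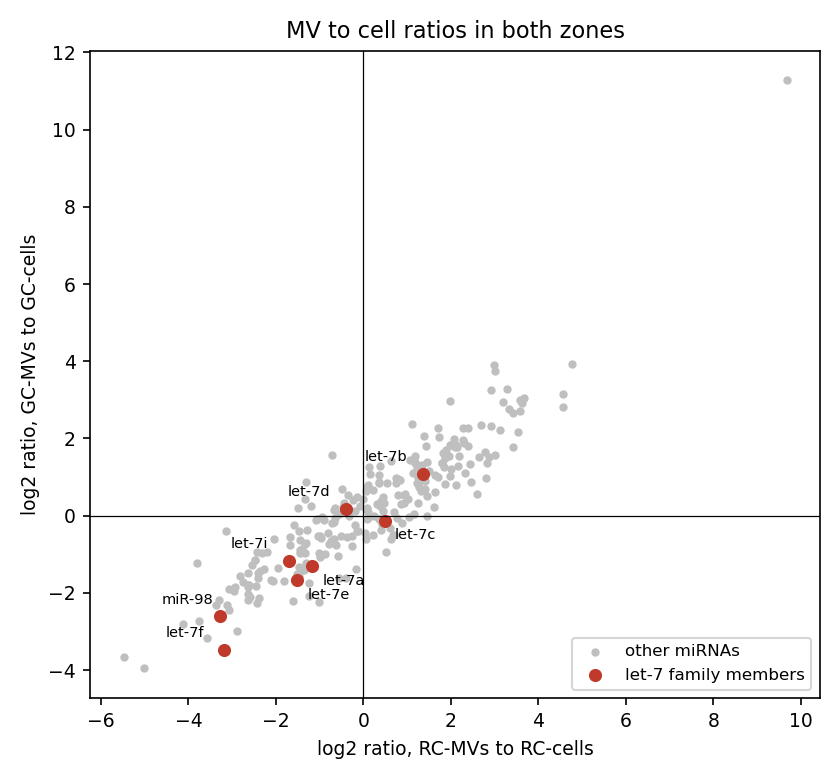
Log2 ratio of percents between MVs and cells in the resting zone (horizontal axis) and in the growth zone (vertical axis) for 262 miRNAs that had 10 reads or more in each of the 4 libraries, each a point, with the 8 let-7 members in red. Let-7f and miR-98 sit near the lower left end of the cloud, let-7b lies among the miRNAs with higher shares in both sets of MVs, and let-7c and let-7d lie on opposite sides of 0 in the 2 zones.

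Differences between members were also set beside their sequences. The ratio between 2 members within a comparison is free of the library totals, and so of every scaling that divides whole libraries. Between let-7f and let-7b, which differ by 3 bases (A12G, A17G and A19G from let-7f to let-7b), the MV to cell ratio of let-7b was 23.4 times that of let-7f in RC (interval 22.5 to 24.4) and 23.7 times in GC (interval 22.5 to 24.9). The 4 pairs that differ by 1 base fall between these ends. From let-7a to let-7c, which is A19G, the ratio was 3.17 times as high in RC and 2.25 times in GC. From let-7c to let-7b, which is A17G, it was 1.83 times as high in RC and 2.33 times in GC. From let-7a to let-7f, which is G12A, it was 4.04 times lower in RC and 4.52 times lower in GC. From let-7a to let-7e, which is U9G, it was 1.26 times lower in RC (interval 1.15 to 1.38) and 1.29 times lower in GC (interval 1.15 to 1.45). All 4 pairs thus differed in the same direction in both zones, beyond counting error. These pairs share members and libraries, and each zone gave 1 pair of libraries.

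The order also went with base composition. Let-7f and miR-98 have 7 G or C bases among their 22, let-7a has 8, let-7c, let-7d, let-7e and let-7i have 9, and let-7b has 10. The members with the fewest had the lowest MV to cell ratios and let-7b the highest. Within the 4 members with 9 such bases the ratio still ran from 0.309 for let-7i to 1.40 for let-7c in RC and from 0.314 for let-7e to 1.13 for let-7d in GC. Spearman's rho between the percent of G and C bases and the ratio was 0.80 in RC and 0.87 in GC over the 8 members. Over the 117 miRNAs with a sequence and at least 100 reads in every library it was 0.56 in RC and 0.47 in GC. All points of a comparison come from the same pair of libraries and 7 of the members are among the 117, so these correlations only describe those libraries. The part of base composition in the ratios was not tested.

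**Figure D5:**
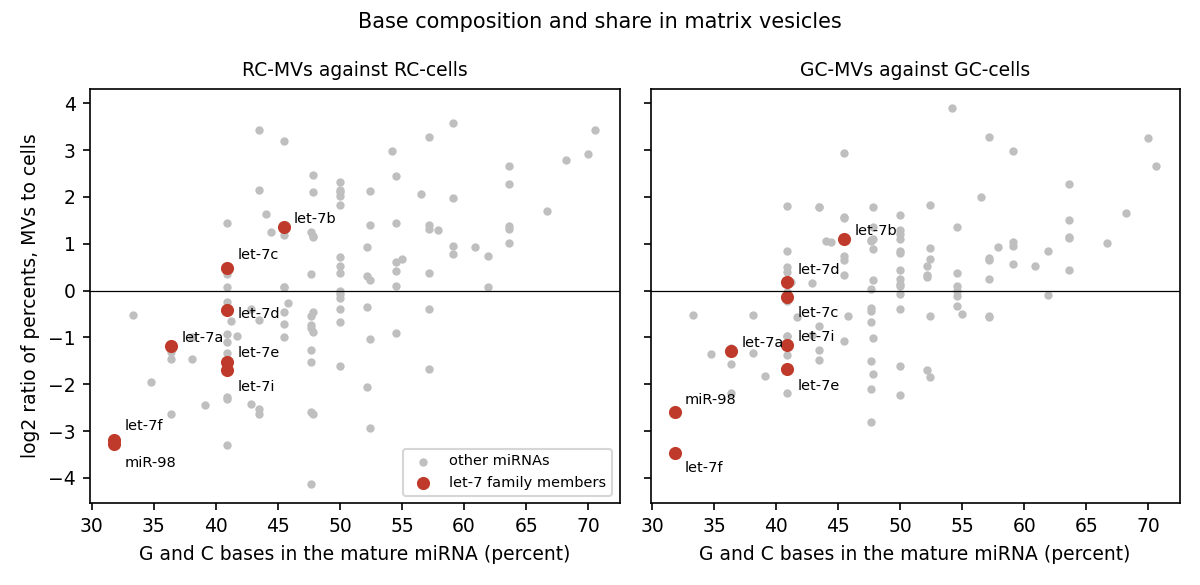
Percent of G and C bases in the mature miRNA (horizontal axis) and log2 ratio of percents between MVs and cells (vertical axis) in RC (left) and GC (right), with the 8 members in red and the other miRNAs with at least 100 reads in every library in grey. The members run from let-7f and miR-98 at 31.8% G and C to let-7b at 45.5%, with the lowest and the highest ratios of the family, respectively, and the grey points rise with base composition as well.

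The next comparison was between cells of the 2 maturation states. None of the 8 members reached 2-fold between RC-cells and GC-cells, where 13.7% of all miRNAs were past 2-fold higher in RC-cells and 5.70% past 2-fold lower. The family share was 1.12 times as high in RC-cells, but 0.890 times with TMM scaling, 0.877 times with DESeq2 size factors and 0.901 times with totals that leave out the 3 abundant miRNAs miR-143-3p, miR-22-3p and miR-21-5p. The single ratios of percents ran from 1.02 for let-7i to 1.48 for let-7b. Let-7b, let-7c and let-7e were above 1 under each of these scalings, whereas let-7f, let-7i and miR-98 were below 1 under all 3 scalings, let-7d under TMM and DESeq2 and let-7a under DESeq2. The median log2 ratio of all miRNAs was 0.24 with percents, and these scalings moved it by -0.34, -0.36 and -0.32. Whatever the scaling, let-7b stood higher relative to let-7i in RC-cells than in GC-cells, but the direction of the whole family changed with the scaling.

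Between vesicles of the 2 maturation states the members moved apart. The family share was 1.27 times as high in RC-MVs as in GC-MVs (interval 1.25 to 1.28), and 0.817 times with totals that leave out the 3 abundant miRNAs. Let-7c was 2.16-fold higher in RC-MVs (interval 2.10 to 2.21), the only member past 2-fold, where 24.7% of all miRNAs were past 2-fold higher and 14.6% past 2-fold lower. With TMM or DESeq2 scaling no member passed, let-7c being at 1.88 and 1.82, and without the 3 abundant miRNAs 2 members, let-7i and miR-98, passed in the other direction, both at a ratio of 0.455, while let-7c was at 1.39. Under that total 10.1% of all miRNAs were past 2-fold higher and 31.0% past 2-fold lower, so 2 of 8 lower is not above the background. Let-7b was 1.78-fold higher in RC-MVs (1.15-fold without the 3 abundant miRNAs), let-7e 1.55-fold, let-7a 1.38-fold and let-7f 1.35-fold, of which let-7a, let-7e and let-7f were below 1 without the 3 abundant miRNAs. Let-7i was 1.42-fold lower in RC-MVs (interval 1.39 to 1.45) and let-7d was 1.20-fold lower (interval 1.12 to 1.30), and their ratios lay further below 1 with each of the 3 scalings, to 0.455 for let-7i and 0.537 for let-7d without the 3 abundant miRNAs. The ratio of miR-98 was 0.704 with percents, with an interval for counting error from 0.490 to 1.01 that includes 1. It was 0.612 with TMM scaling and 0.593 with DESeq2 size factors, so whether miR-98 differed between the vesicle libraries beyond counting error depends on the total used.

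The locus of each member was examined because let-7 genes lie in small clusters, often transcribed together. The deposited table was made on the build Rnor_6.0, and the chromosomes and neighbours named here are those of the GRCr8 assembly. Mirlet7a1, Mirlet7f-1 and Mirlet7d lie within 10 kb of each other on chromosome 17, Mirlet7c-2 beside Mirlet7b on chromosome 7, and Mirlet7f-2 beside Mir98 within the span of Huwe1 on chromosome X. Mirlet7e lies with Mir99b and Mir125a on chromosome 1, Mirlet7c-1 with Mir99a on chromosome 11 and Mirlet7a-2 with Mir100 on chromosome 8. Mirlet7i, on chromosome 7, has no other annotated miRNA gene in that window.

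The MV to cell ratios of neighbouring loci were compared next. On chromosome 17 the ratio in RC was 0.528 for the let-7a-1 locus, 0.109 for let-7f-1 and 0.754 for let-7d, and in GC it was 0.492, 0.0896 and 1.13. On chromosome 7 it was 1.42 for let-7c-2 and 2.56 for let-7b in RC, and 0.874 and 2.13 in GC. On chromosome X it was 0.110 for let-7f-2 and 0.104 for miR-98 in RC, where their intervals overlapped, and 0.0902 and 0.165 in GC, where they did not. Over both let-7f loci, the GC ratio of miR-98 was 1.84 times that of let-7f (interval 1.45 to 2.32).

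The mature let-7f is identical in its 2 hairpins, which are shown because the deposited counts assign its reads to each. They are RefSeq entries of the GRCr8 assembly, where the first has the symbol Mirlet7f-1os, both on the plus strand, with the mature 5p arm in capitals.
Mirlet7f-1: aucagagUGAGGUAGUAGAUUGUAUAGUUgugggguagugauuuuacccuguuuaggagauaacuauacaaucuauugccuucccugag
Mirlet7f-2: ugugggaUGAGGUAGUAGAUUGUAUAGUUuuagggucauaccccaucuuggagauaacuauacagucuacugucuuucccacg

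The let-7f-1 locus held 49.5% and 49.6% of the let-7f reads in RC-cells and GC-cells, and 49.4% in each MV library. The table also lists miR-3596d, from the gene opposite let-7f-1, at 0 reads in all 4 libraries, which allows a share of up to 4.05e-05% in GC-cells and 0.000305% in GC-MVs, the deepest and the shallowest library. The let-7c-1 locus held between 54.9% and 57.0% of the let-7c reads. For let-7a the split differed between cells and vesicles, with the let-7a-2 locus holding 60.3% in RC-cells (interval 59.8% to 60.8%) and 61.9% in GC-cells, against 52.5% in RC-MVs (interval 50.7% to 54.3%) and 53.8% in GC-MVs. Taken by locus, let-7a-2 was 2.60-fold lower in the RC vesicles than in the cells, while let-7a-1 was 1.89-fold lower and did not reach 2-fold. In GC both loci did, at 2.83-fold and 2.03-fold lower. For let-7a-1 the interval of the fold includes 2 in RC (1.793 to 2.002) and in GC (1.897 to 2.178). Whether this locus reached 2-fold was thus within counting error in both zones. How a read that matches both loci was assigned is not given in the sources used here, so these splits are those of the table and not of transcription.

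The label of guide strands was checked against the 3p arms of the same hairpins. The 5p arms held 99.2% and 99.3% of the reads of both arms in RC-cells and GC-cells, and 99.4% and 98.9% in RC-MVs and GC-MVs. The 3p share was highest for let-7d among the members with 1 hairpin, whose 3p arm made up 19.5% and 20.8% of its reads in RC-cells and GC-cells, and 16.7% and 20.5% in RC-MVs and GC-MVs. Let-7d-3p had 2696 and 2666 reads in the cells and 286 and 392 in their vesicles, more than any other 3p arm of the family. Its MV to cell ratio was 0.624 in RC and 1.11 in GC, beside 0.754 and 1.13 for its 5p arm.

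The arms of let-7b parted in the vesicles. Let-7b-3p made up 1.08% of the let-7b reads in RC-cells (interval 0.987% to 1.19%) and 0.155% in RC-MVs (interval 0.107% to 0.224%), and 0.984% in GC-cells and 0.301% in GC-MVs. Its own share was 2.75-fold lower in the RC vesicles than in the cells, on 28 and 452 reads, while let-7b-5p was higher there. The 3p arm of let-7f-2 was read 120 times in RC-cells and 0 times in RC-MVs. Set by convention at a floor of 3 reads in RC-MVs, its share would be 6.80-fold lower there. The exact interval of the ratio reaches up to 0.183, which allows a smaller difference. In GC it had 136 reads in cells and 8 in MVs, a share 2.25-fold lower in MVs (ratio 0.444, interval 0.188 to 0.900). Let-7i-3p, with 265 and 327 reads in the cell libraries, stayed between 0.0813% and 0.111% of the let-7i reads in all 4.

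A further let-7 miRNA in the table, let-7g, carries the same seed and was not among the 8 members counted above. Its mature sequence is shown for comparison with let-7i, from which it differs at 2 positions (A17G and A19U from let-7g to let-7i).
rno-let-7g-5p: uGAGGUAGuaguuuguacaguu

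Let-7g stood at 0.729% in RC-cells and 0.711% in GC-cells, against 0.117% in RC-MVs and 0.156% in GC-MVs. It was 6.22-fold lower in RC-MVs and 4.57-fold lower in GC-MVs than in the cells, between let-7i and the pair of let-7f and miR-98. With let-7g added, the family share was 11.0% in RC-cells and 9.89% in GC-cells, against 5.88% in RC-MVs and 4.71% in GC-MVs. The family ratio was then 0.532 in RC and 0.476 in GC.

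The partners that share a cluster with let-7 genes were also read. Next to let-7e, with MV to cell ratios of 0.350 in RC and 0.314 in GC, miR-99b-5p had ratios of 2.02 and 1.35 and miR-125a-5p had ratios of 0.327 and 0.214. Of the 5 partners of the miR-99, miR-100 and miR-125 families, 1 was 2-fold higher and 1 was 2-fold lower in RC-MVs, and 0 were higher and 2 were lower in GC-MVs, against the backgrounds given above. The higher one was miR-99b-5p, whose interval of 1.98 to 2.06 includes 2. Its RC log2 ratio was 1.01 with percents. TMM, DESeq2 and totals without the 3 abundant miRNAs move RC log2 ratios by -0.09, -0.04 and -0.21, and under each of them this call was lost.

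Among the 124 other miRNAs with at least 100 reads in every library, the 5 whose log2 percents over the 4 libraries lay closest to those of the summed family were miR-103-3p, miR-30a-5p, miR-222-3p, miR-101a-3p and miR-21-5p. Their distances, taken after centring each miRNA on its mean, were 0.133, 0.224, 0.396, 0.422 and 0.454. The nearest, miR-103-3p, was at 0.169% in RC-cells and 0.163% in GC-cells, against 0.0922% in RC-MVs and 0.0810% in GC-MVs. Measured in the same way, the 8 members themselves lay between 0.350 (let-7a) and 2.41 (let-7f) from the sum to which they contribute.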

How the data were processed

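RNA was isolated with TRIzol and sequenced on an Illumina HiSeq. The authors ran miARma-Seq, with FASTQC for quality control and Bowtie2 as the aligner, on the rat build Rnor_6.0 with NCBI annotation release 105. The deposited values are raw read counts per annotated mature miRNA locus, without normalization. Tool versions, adapter trimming and the rule for reads matching more than 1 locus are not given in the sources used here.

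Counts of loci with the same name were added, which turned 774 loci into 740 names. Levels are percents of the miRNA reads of a library. A member was called at a ratio of at least 2 in either direction, with at least 1 read in both libraries. All members are named, with their loci, 3p arms and cluster partners, and the 5 miRNAs nearest in pattern. The members and lists were chosen with earlier results of these data known. Of 740 names, 660 matched a RefSeq sequence. Alternatives were TMM (edgeR 4.0.16) and DESeq2 1.42.0 size factors, totals without miR-143-3p, miR-22-3p and miR-21-5p, means over loci, a pseudocount of 0.5, at least 10 reads, 4-fold, and intervals wholly beyond 2-fold. Python 3.11.15 and R 4.3.3 were used.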

Additional observations from a re-analysis of the deposited data

Results flagged for a closer look

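With 1 library per group, none of the following differences was tested. Each is a ratio of 2 ratios of percents, and its size depends on how the 4 libraries are scaled. Let-7c had a higher share in RC-MVs than in RC-cells (ratio 1.40) and a lower share in GC-MVs than in GC-cells (0.913). The ratio in RC was thus 1.53 times that in GC (interval 1.49 to 1.57). The RC and GC ratios of let-7c were 1.315 and 0.782 with TMM scaling, and 1.21 and 0.980 without the 3 abundant miRNAs. Let-7d went the other way, with 0.754 in RC and 1.13 in GC, a ratio of 0.665 (interval 0.615 to 0.718), but its GC ratio was below 1 with TMM scaling. The same value of 0.665 arises for let-7d when RC is set against GC, at 1.25 in cells and 0.831 in MVs. Let-7i was at 1.02 in cells and 0.704 in MVs for RC against GC, a ratio of 0.693 (interval 0.679 to 0.707). For miR-98 these values were 1.12 and 0.704, a ratio of 0.629 (interval 0.444 to 0.890) that rests on 58 and 73 reads in the vesicles. The cell ratios of let-7d, let-7i and miR-98 were below 1 with TMM or DESeq2 scaling.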

How the results depend on the processing

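The family ratio stayed below 1 in both MV to cell comparisons under every alternative. In RC it was 0.524 with TMM, 0.543 with DESeq2 size factors, 0.483 without the 3 abundant miRNAs and 0.553 with means over loci. In GC these values were 0.425, 0.448, 0.532 and 0.522. For RC-cells against GC-cells they were 0.890, 0.877, 0.901 and 1.11, and for RC-MVs against GC-MVs 1.10, 1.06, 0.817 and 1.18, so the direction between zones depends on the total. At a 4-fold threshold 2 members passed in RC and 2 in GC, all lower in MVs, where 17.1% and 9.59% of all miRNAs were 4-fold lower, and 0 between the MVs, where 4.79% were higher and 3.27% lower. Between the MVs, 0 members passed 2-fold with TMM, 0 with DESeq2 and 2, both lower in RC-MVs, without the 3 abundant miRNAs. Of all miRNAs, 18.6% were then higher and 17.9% lower with TMM, 17.9% and 20.7% with DESeq2, and 10.1% and 31.0% without the 3. In GC, 5 of the 6 calls were kept with TMM and with DESeq2, and let-7b lost its call, where 27.1% and 28.3% of all miRNAs were higher and 29.3% and 28.8% lower. The 6 calls in RC were the same under every scaling, with means over loci, with at least 10 reads and with intervals wholly beyond 2-fold. Of the 32 single ratios, 5 crossed 1 with TMM, 5 with DESeq2, 6 without the 3 abundant miRNAs and 0 with means over loci. Over all miRNAs, the share of higher among 2-fold calls in RC-cells against GC-cells went from 70.7% to 40.0%, 37.6% and 40.7% with the 3 scalings, and in RC-MVs against GC-MVs from 62.8% to 51.0%, 46.4% and 24.5%. The median log2 ratio in GC moved by -0.22 with TMM, -0.15 with DESeq2 and 0.10 without the 3 abundant miRNAs, in RC by -0.21 with the last, and between the MVs by -0.20, -0.25 and -0.63. Low read counts in MVs limit miR-98, at 58 and 73 reads, and the 3p arms other than let-7d-3p, which had 28 reads or fewer in each MV library. A comparison of vesicles with cells blocked by zone, which would treat the zones as replicates, was not made.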
